A study of Homo sapiens with 12 samples.

Results

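The genes described here are 43 endoplasmic reticulum (ER) chaperone and integrated stress response genes, chosen by name from a count table of 49651 genes with counts. They fall into an ER chaperone set of 18 genes, which holds the folding machinery of the ER lumen and its stress sensors, and an ATF4 target set of 25 genes, which holds the factors, feedback genes and metabolic enzymes of the integrated stress response. All 43 had a row in the table. Of these, 41 had enough counts for a test, 18 in the ER chaperone set and 23 in the ATF4 target set, while SESN2 and ALDH1L2 did not. Each was measured in D283 cells, an established line from a human medulloblastoma, with the tyrosine kinase genes ABL1 and ABL2 inactivated (3 libraries) and in D283 cells that carried a scrambled control (3 libraries). All cells were grown in the same supplemented medium, and the sources used here do not say how the genes were inactivated. The labels leave unsaid whether replicate libraries represent separate cultures, and p-values then measure only the spread between these samples.

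The ER folds secreted and membrane proteins with the help of lumenal chaperones, lectin chaperones that bind sugar chains, and disulfide isomerases. When unfolded proteins accumulate, the sensors IRE1, ATF6 and PERK start the unfolded protein response (UPR): IRE1 splices XBP1 mRNA, and spliced XBP1 and cleaved ATF6 switch on chaperone genes. PERK (the product of EIF2AK3) and its sister kinases phosphorylate the translation factor eIF2 alpha, which lowers protein synthesis and favours translation of ATF4, the central factor of the integrated stress response (ISR). ATF4 then switches on genes for amino acid synthesis, transfer RNA charging and feedback. Gene counts measure mRNA, and show neither the splicing of XBP1 nor the translation of ATF4.

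The libraries held 36140406, 49034159 and 34292341 counts in the inactivated group, and 35893081, 34951232 and 33505903 in the control group. At this depth a gene observed at 0 counts could still have an expected count of up to 3, for counting error only. That is 0.0612 to 0.0895 CPM (counts per 1000000 counts of the library) before normalization. All other CPM are after normalization. ABL1 averaged 61.9 ± 0.625 CPM in inactivated cells and 153 ± 4.82 CPM in control cells (mean ± SD, n = 3 libraries per group here and below), a log2 fold change of -1.31. ABL2 averaged 104 ± 7.598 CPM in inactivated cells and 138 ± 5.58 CPM in control cells, a log2 fold change of -0.41. The medulloblastoma markers OTX2, MYC, NEUROD1, SOX4 and NES were present in both groups, whereas EOMES, LMX1A and PAX6 stayed under 1 CPM in every library. Of 11 markers of fibroblasts, blood, endothelium and glia, 9 stayed under 1 CPM in every library, CD3E was at 0, and COL1A1 and DCN passed 1 CPM in at least 1 library. The summed level of those 11 markers was 15.3 to 17.4 CPM in inactivated libraries and 11.5 to 12.1 CPM in control libraries, most of it COL1A1, and its part in the results was not tested.

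Some members cannot be counted cleanly. CANX, HYOU1, SESN2 and CARS1 have a second entry on an alternate locus of the genome, and the treatment of reads with several alignments, which bears on such genes, is one the sources used here do not give. Among coding genes with such a second entry, 89.0% had a mean under 1 CPM, against 39.5% of coding genes without one. CANX, which encodes calnexin, had 462, 575 and 469 counts at its main locus in inactivated libraries and 527, 538 and 529 in control libraries, and 1723, 2227 and 1560 against 1990, 1893 and 1840 at the alternate locus. ASNS shared 69.5% of its exon bases with the read-through gene CZ1P-ASNS. The levels of these 5 genes may therefore be too low, and the near absence of SESN2, with 1 count in inactivated and 2 in control libraries, cannot be read as lack of expression. ALDH1L2, a mitochondrial folate enzyme gene without such a copy, had 2 and 3 counts. PDIA6 shared 32.7% of its exon bases with ATP6V1C2 on the opposite strand, MTHFD2 29.4% with SLC4A5 and CEBPB 26.6% with CEBPB-AS1, but each of these partners had fewer than 500 counts in all libraries together. PDIA3 has a processed pseudogene, PDIA3P1, which held 2582 counts beside 120711 for PDIA3.

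Promoter sequences are given first, since these genes are known for the response elements through which they are switched on. RefSeq windows on GRCh38.p14, from 250 bases before to 50 bases after each annotated start site, were at hand for 39 of the 43 genes (59 windows). The ER stress element (ERSE, CCAAT and CCACG separated by any 9 bases), bound by ATF6 with NF-Y, was searched on both strands and found in the windows of 7 of 17 ER chaperone genes and of none of 22 ATF4 targets, against 25 of all 27305 genes with a window (0.0916%) and 0.163% of the genes tested. The related ERSE-II (ATTGG and CCACG separated by any 1 base) was found in 3 of 17 and none of 22, against 0.0696% of all genes. The amino acid response element that ATF4 binds together with a C/EBP factor (CARE, here TGATGNAA) was found in 7 of 22 ATF4 targets (31.8%) and 1 of 17 ER chaperone genes (5.88%), against 4.46% of all genes and 2.79% of the genes tested. The core of the UPR element (TGACGTGG) was found in 1 gene of each set, HYOU1 and CARS1, against 0.927% of all genes, and in HYOU1 it overlapped an ERSE-II. A match is a stretch of letters, not a site shown to be bound. The sites below are shown because they recur in one set and are rare elsewhere. Each is written 5′ to 3′ on the strand of its gene, with the element in capitals (in CRELD2, CALR, SDF2L1, AARS1 and CHAC1 it lies on the opposite strand and appears as its reverse complement).
HSPA5, ERSE, chr9:125241377-125241423, reverse strand: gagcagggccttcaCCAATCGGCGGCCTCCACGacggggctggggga
PDIA6, ERSE, chr2:10812839-10812885, reverse strand: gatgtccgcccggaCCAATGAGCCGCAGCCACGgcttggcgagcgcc
XBP1, ERSE, chr22:28800589-28800635, reverse strand: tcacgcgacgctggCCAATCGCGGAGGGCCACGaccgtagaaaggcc
HSP90B1, ERSE, chr12:103930202-103930248, forward strand: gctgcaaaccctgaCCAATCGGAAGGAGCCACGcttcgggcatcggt
CRELD2, ERSE, chr22:49918540-49918586, forward strand: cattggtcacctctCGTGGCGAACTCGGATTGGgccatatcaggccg
CALR, ERSE, chr19:12938370-12938416, forward strand: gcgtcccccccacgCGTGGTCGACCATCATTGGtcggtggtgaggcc
SDF2L1, ERSE-II, chr22:21642100-21642138, forward strand: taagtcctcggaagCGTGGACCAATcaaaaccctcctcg
CEBPG, CARE, chr19:33374057-33374092, forward strand: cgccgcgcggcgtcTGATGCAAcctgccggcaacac
ASNS, CARE, chr7:97872455-97872490, reverse strand: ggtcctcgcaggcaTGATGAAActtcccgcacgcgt
AARS1, CARE, chr16:70289672-70289707, reverse strand: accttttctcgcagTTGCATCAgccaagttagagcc
CHAC1, CARE, chr15:40953248-40953283, forward strand: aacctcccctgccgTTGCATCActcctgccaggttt
ATF3, CARE, chr1:212565202-212565237, forward strand: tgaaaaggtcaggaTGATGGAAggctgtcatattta

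HERPUD1, whose product serves ER-associated degradation, was the only member whose windows held both an ERSE-II and a CARE. Its 250 bases before the start site are shown with the CARE (first, on the opposite strand, bases -176 to -169) and the ERSE-II (bases -117 to -107) in capitals. The same stretch of PDIA4, the member that fell most, is shown beside it. It held none of the 4 motifs, which says only that these letters are not in this window.
HERPUD1, chr16:56931892-56932141, forward strand: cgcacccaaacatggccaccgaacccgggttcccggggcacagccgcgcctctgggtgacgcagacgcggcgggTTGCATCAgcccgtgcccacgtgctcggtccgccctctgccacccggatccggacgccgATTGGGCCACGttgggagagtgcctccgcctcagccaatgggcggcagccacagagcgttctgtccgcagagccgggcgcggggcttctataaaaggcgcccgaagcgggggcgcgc
PDIA4, chr7:149028491-149028740, reverse strand: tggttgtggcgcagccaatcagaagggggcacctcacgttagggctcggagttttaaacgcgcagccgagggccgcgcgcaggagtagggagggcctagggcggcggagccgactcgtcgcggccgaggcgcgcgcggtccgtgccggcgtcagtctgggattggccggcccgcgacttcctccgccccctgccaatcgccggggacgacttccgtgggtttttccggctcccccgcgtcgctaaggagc

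**Figure D1:**
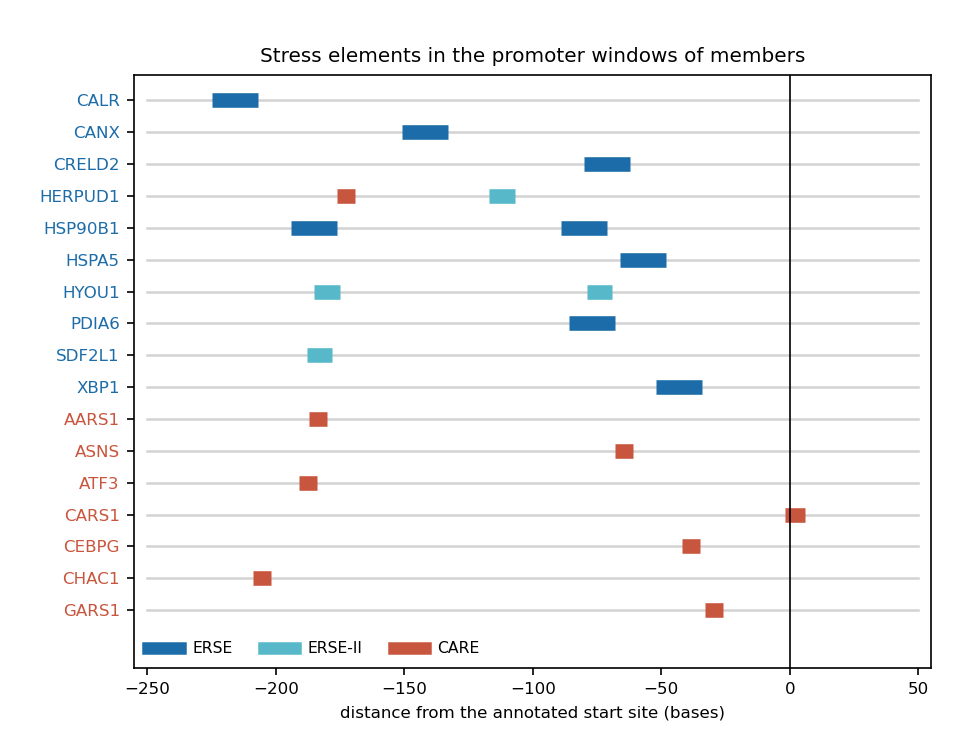
Stress elements in the promoter windows of the 17 members that hold one, by distance from the annotated start site in bases (1 window per gene, grey line; names in blue are ER chaperone genes, in red ATF4 targets). ERSE and ERSE-II matches lie in ER chaperone genes, and CARE matches in 7 ATF4 targets and in HERPUD1.

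Most members were lower in cells with ABL1 and ABL2 inactivated. In the ER chaperone set 12 of 18 genes (66.7%) fell, none rose and 6 did not pass the test. In the ATF4 target set 15 of 23 (65.2%) fell, 3 rose and 5 did not pass. The test was edgeR's quasi-likelihood test, called at an adjusted p under 0.05 (Benjamini-Hochberg, over the 14704 genes with enough counts). Over all genes tested 29.7% fell and 29.6% rose. These shares include genes in chromosome stretches that had shifted upward or downward as a whole. On chromosome 3, for example, the 37 other genes tested within 5 Mb of EDEM1 had a median log2 fold change of -0.55. Only 1 tested member, ATF3, lies in a stretch that had shifted by more than 0.2, and that shift was upward. The part of location in this contrast was not tested. In the ER chaperone set 0 genes were higher at an unadjusted p under 0.05 as well, and 0 rose by DESeq2 or limma-voom. The median log2 fold change (inactivated over control) was -0.18 in the ER chaperone set and -0.23 in the ATF4 target set, against 0.0031 over all genes tested.

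The changes were mostly small. A fall of at least 1.5-fold was seen for 3 ER chaperone genes (PDIA4, HYOU1 and DNAJC3) and for 6 ATF4 targets (ATF5, DDIT3, CEBPB, NUPR1, PPP1R15A and CARS1), and no member rose that far. Over all genes tested, 11.2% fell and 12.8% rose by at least 1.5-fold. Of these 9 members, 6 kept both the call and that fold in every setting tried. DNAJC3, HYOU1 and CARS1 did not, and the last pair are among the genes that cannot be counted cleanly. DNAJC3 remained called but came to a log2 fold change of -0.56 without inactivated library 1 and -0.57 without control library 1. HYOU1 came to -0.55 without inactivated library 3 and to -0.53 in lane 2 alone. CARS1 came to -0.51 without inactivated library 1, -0.54 without control library 1 and -0.30 in lane 2 alone. All 3 inactivated libraries lay below all 3 control libraries for 11 ER chaperone genes and 16 ATF4 targets, and above them for none and for 5 (31.9% and 31.4% of all genes tested). The middle 50% of log2 fold changes ran from -0.29 to -0.066 in the ER chaperone set, from -0.53 to 0.033 in the ATF4 target set and from -0.25 to 0.30 over all genes tested. By these quartiles the ATF4 targets were the more spread out. Their whole range was -0.94 to 0.42, while the ER chaperone genes ran from -1.18 to 0.027, with PDIA4 far below the rest.

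**Figure D2:**
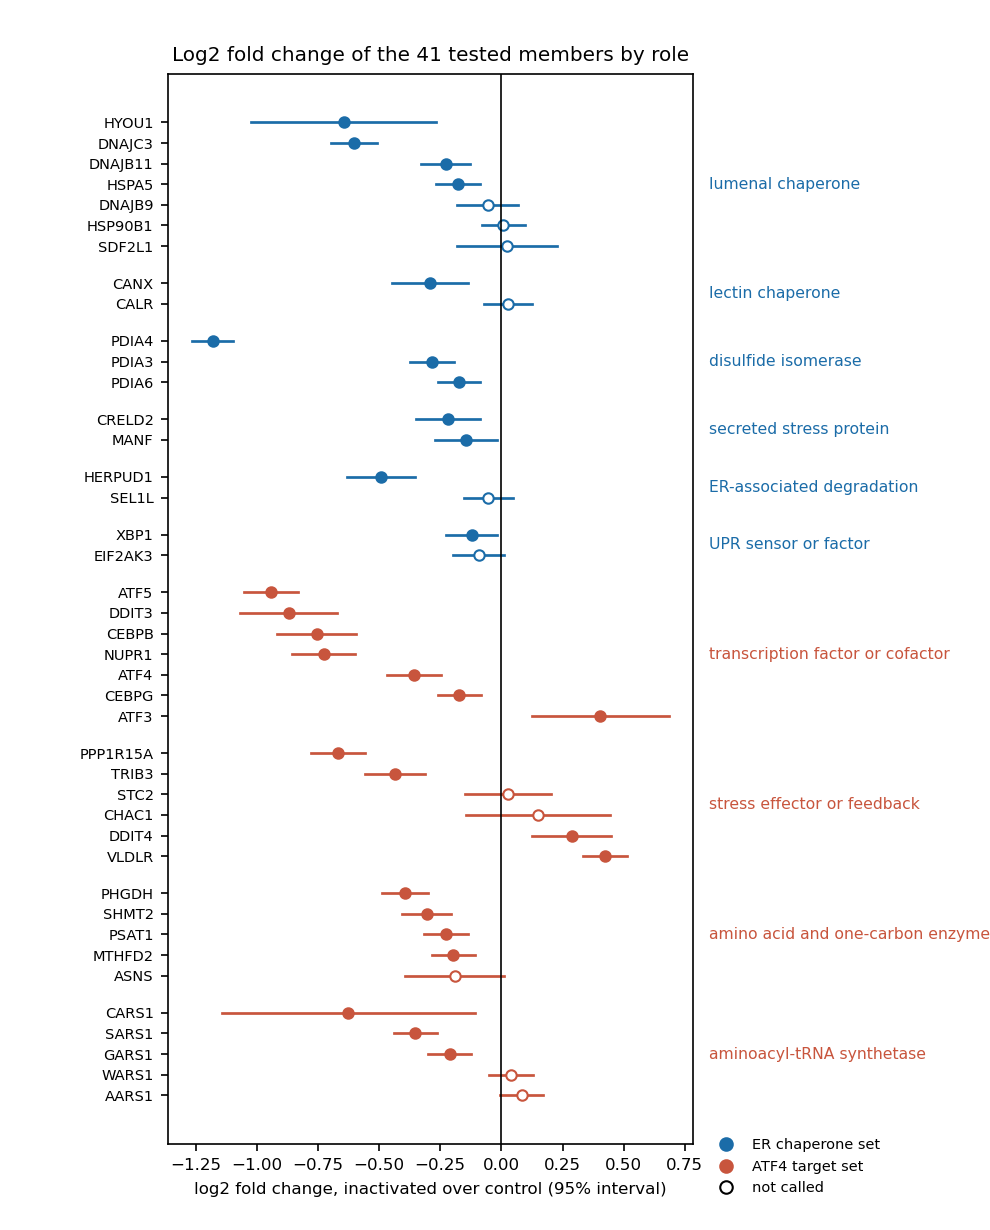
Log2 fold change, inactivated over control, of the 41 tested members with 95% intervals from the edgeR fit, grouped by role (blue, ER chaperone set; red, ATF4 target set; filled, past the adjusted threshold of 0.05; open, not called). PDIA4 stands lowest at -1.18, and ATF3, VLDLR and DDIT4 are the called members to the right of 0.

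**Figure D3:**
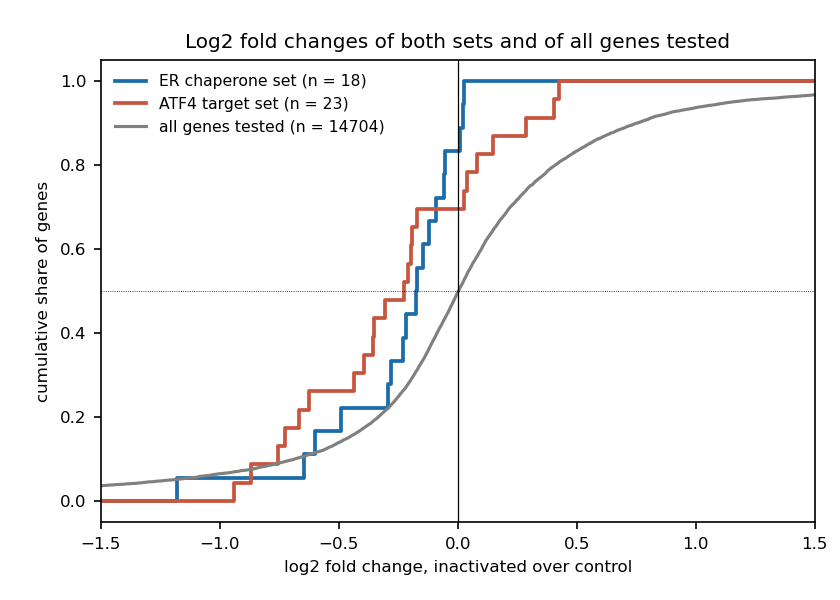
Cumulative share of genes by log2 fold change, inactivated over control, for the ER chaperone set (18 genes), the ATF4 target set (23 genes) and all 14704 genes tested. Both sets lie to the left of all genes from about -0.3 upward, with medians of -0.18 and -0.23 against 0.0031. Above 0, the ER chaperone set ends at 0.027 and the ATF4 target set at 0.42. Values beyond 1.5 in size are not drawn.

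Per library, the median over ER chaperone genes of the log2 ratio to the control mean was -0.17, -0.26 and -0.14 in the inactivated libraries, and 0.0017, 0.0030 and 0.014 in the control libraries. For the ATF4 targets it was -0.22, -0.27 and -0.27 in the inactivated libraries, and -0.019, -0.0058 and 0.026 in the control libraries. Inactivated library 2, the most deeply sequenced, had the lowest ER chaperone median, and 17 of 18 ER chaperone genes lay below their control mean there against 15 of 18 in either of the other two.

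**Figure D4:**
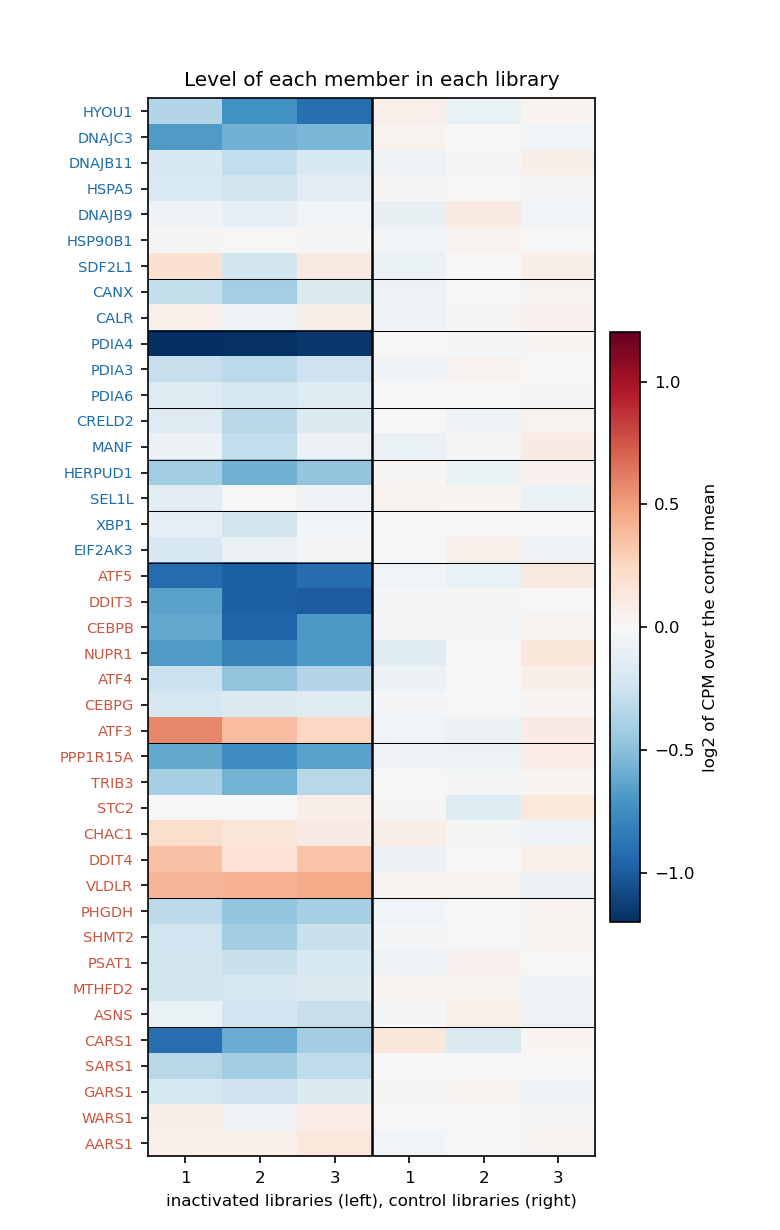
Log2 ratio of each tested member's CPM to its mean over the control libraries, for inactivated libraries 1 to 3 (left of the line) and control libraries 1 to 3 (right), in the order of the plot of fold changes by role. PDIA4, ATF5 and DDIT3 are lower in every inactivated library, and ATF3, DDIT4 and VLDLR are higher in every inactivated library.

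Among the lumenal chaperones 4 of 7 fell (57.1%, against 29.7% of all genes tested) and 3 did not pass. HSPA5 encodes BiP, the Hsp70 of the ER that holds the stress sensors inactive. It lies on chromosome 9 at 125234853 to 125241343 (GRCh38.p14, reverse strand) and had 721, 699 and 747 CPM in inactivated libraries, against 827, 817 and 807 CPM in control libraries. Every inactivated library was below every control library, but the difference was small, with a log2 fold change of -0.18 ± 0.043 (SE) and an edgeR adjusted p of 0.00146. HSP90B1, the ER Hsp90 known as GRP94, had 1087, 1070 and 1086 CPM in inactivated libraries, against 1051, 1104 and 1069 CPM in control libraries. Its groups overlapped, and its log2 fold change of 0.0082 had a 95% interval of -0.080 to 0.097.

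Several J-domain proteins help BiP, and they did not move alike. DNAJC3 (p58IPK), a co-chaperone that also inhibits PERK, had 96.6, 104 and 106 CPM in inactivated libraries, against 160, 154 and 151 CPM in control libraries. These groups are far apart relative to their spread, and DNAJC3 fell by 34.1% (log2 fold change -0.60 ± 0.045, adjusted p 1.1e-09). DNAJB11, which delivers unfolded clients to BiP, had 111, 103 and 110 CPM in inactivated libraries, against 121, 125 and 134 CPM in control libraries, and fell (log2 fold change -0.23 ± 0.047). DNAJB9, which keeps IRE1 inactive together with BiP, averaged 26.4 ± 0.642 CPM in inactivated cells and 27.5 ± 1.998 CPM in control cells, with overlapping groups and an adjusted p of 0.439. SDF2L1, which works with DNAJB11, averaged 10.01 ± 1.44 CPM in inactivated cells and 9.78 ± 0.551 CPM in control cells and did not pass (adjusted p 0.854). HYOU1, the exchange factor of BiP, was listed at 1.67, 1.29 and 1.14 CPM in inactivated libraries, against 2.22, 2.02 and 2.17 CPM in control libraries. It fell with a log2 fold change of -0.65 ± 0.18 (adjusted p 0.00486), but on few counts and with an alternate copy, and in lane 2 alone the adjusted p was 0.0516.

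The lectin chaperones calreticulin and calnexin differed. CALR, the lumenal one, had 1196, 1107 and 1208 CPM in inactivated libraries, against 1101, 1159 and 1187 CPM in control libraries. The groups overlapped, and the 95% interval of the log2 fold change ran from -0.073 to 0.13. CANX, the membrane-bound one, had 12.6, 11.6 and 13.7 CPM at its main locus in inactivated libraries, against 14.8, 15.5 and 15.9 CPM in control libraries, and fell (log2 fold change -0.29 ± 0.074, adjusted p 0.00228). With both copies of CANX summed, an alternative chosen after seeing the data, it had 59.7, 56.5 and 59.3 CPM in inactivated libraries, against 70.8, 70.01 and 71.3 CPM in control libraries, with a log2 fold change of -0.27.

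All 3 disulfide isomerase genes fell, by unequal amounts, where 29.7% of all genes tested fell. PDIA4 (ERp72), on chromosome 7 at 149003051 to 149028505 on the reverse strand, had 116, 117 and 119 CPM in inactivated libraries, against 267, 262 and 270 CPM in control libraries. It fell by 55.9%, the largest fall of the 41 tested members, with an edgeR adjusted p of 9.3e-15 for its log2 fold change of -1.18 ± 0.0400 (95% interval -1.26 to -1.096). PDIA3 (ERp57), the partner of calnexin and calreticulin, had 494, 477 and 502 CPM in inactivated libraries, against 579, 613 and 600 CPM in control libraries. It fell by 0.28 ± 0.042 on the log2 scale (adjusted p 1.3e-05). PDIA6, which also damps IRE1, had 411, 397 and 412 CPM in inactivated libraries, against 460, 461 and 454 CPM in control libraries, a log2 fold change of -0.17 ± 0.0402. The interval of PDIA4 lies wholly below those of the other two isomerases, whose lower bounds were -0.37 and -0.26.

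The remaining ER chaperone genes changed little, except HERPUD1. This gene, shown above with its ERSE-II and CARE, had 15.9, 14.2 and 15.2 CPM in inactivated libraries, against 21.4, 20.1 and 22.0 CPM in control libraries (log2 fold change -0.49 ± 0.066, adjusted p 3.3e-06). SEL1L, the scaffold of the same degradation complex, had overlapping groups at 94.6 ± 4.26 CPM in inactivated cells and 98.3 ± 4.55 CPM in control cells (adjusted p 0.345). CRELD2, a secreted ER stress protein, averaged 20.5 ± 1.39 CPM in inactivated cells and 23.8 ± 0.672 CPM in control cells, and fell (log2 fold change -0.22 ± 0.063, adjusted p 0.00591), although not in lane 2 alone (adjusted p 0.0965).

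XBP1 and MANF were near the threshold. XBP1, the substrate of IRE1, had 70.1, 65.05 and 74.4 CPM in inactivated libraries, against 76.05, 76.2 and 75.4 CPM in control libraries (log2 fold change -0.12 ± 0.049, adjusted p 0.0395). Its call was lost without inactivated library 1 or 2 (edgeR adjusted p 0.0552 and 0.203) and without control library 1, 2 or 3 (0.113, 0.086 and 0.0511). MANF, a neurotrophic factor held in the ER lumen, averaged 63.1 ± 5.66 CPM in inactivated cells and 69.6 ± 4.36 CPM in control cells, with overlapping groups and an adjusted p of 0.0475. That call was lost without inactivated library 2 (0.264) and without control library 2 or 3 (0.084 and 0.195). EIF2AK3, which encodes PERK, had 68.05, 73.9 and 76.4 CPM in inactivated libraries, against 77.7, 80.7 and 74.4 CPM in control libraries, and did not pass (log2 fold change -0.092, adjusted p 0.12).

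The factors of the ISR formed the group with the lowest median log2 fold change of the ATF4 target set (-0.73). Of these 7 genes 6 fell (85.7%, against 29.7% of all genes tested) and ATF3 rose. ATF4 itself, on chromosome 22 at 39520559 to 39522686 on the forward strand, had 423, 366 and 399 CPM in inactivated libraries, against 483, 507 and 531 CPM in control libraries. It fell by 22.0% (log2 fold change -0.36 ± 0.052, edgeR adjusted p 8.8e-06). ATF5, a relative of ATF4 that is also controlled by translation, had 36.6, 35.3 and 37.0 CPM in inactivated libraries, against 68.1, 65.7 and 75.1 CPM in control libraries. With a log2 fold change of -0.94 ± 0.053 it had the largest fall of the ATF4 target set, and 6.48% of its exon bases overlap NUP62 on the opposite strand, which had 36903 counts in all libraries together beside 11552 for ATF5. DDIT3 encodes CHOP, the factor tied to cell death under lasting ER stress. It had 7.25, 5.72 and 5.67 CPM in inactivated libraries, against 11.2, 11.5 and 11.3 CPM in control libraries, and fell by 45.3% (log2 fold change -0.87 ± 0.094, adjusted p 2.0e-07). MARS1 and MBD6 on the opposite strand cover 5.13% and 7.098% of its exon bases, and had 51016 and 11341 counts beside 1914 for DDIT3. Since the strand setting is not known, reads from the shared bases of ATF5 and DDIT3 cannot be told apart from those of their partners.

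The C/EBP factors pair with ATF4 and CHOP on DNA. CEBPB had 16.4, 12.9 and 15.6 CPM in inactivated libraries, against 24.8, 24.8 and 25.9 CPM in control libraries, and fell (log2 fold change -0.76 ± 0.076). CEBPG, whose promoter CARE is shown above, had 74.4, 75.7 and 77.3 CPM in inactivated libraries, against 84.4, 85.05 and 86.8 CPM in control libraries, a smaller fall (log2 fold change -0.17 ± 0.042). NUPR1, a small chromatin cofactor induced by stress, had 39.5, 35.9 and 39.1 CPM in inactivated libraries, against 57.1, 62.8 and 69.2 CPM in control libraries (log2 fold change -0.73 ± 0.062, adjusted p 7.3e-09). For each of these, no inactivated library reached the level of any control library.

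ATF3, a repressor of the same family, went the other way. Its level was low, at 4.101, 3.57 and 3.27 CPM in inactivated libraries, against 2.701, 2.62 and 2.95 CPM in control libraries (log2 fold change 0.40 ± 0.13, adjusted p 0.0145). The call was lost without inactivated library 1 (adjusted p 0.0759) or control library 2 (0.06), in lane 1 alone (0.253) and with DESeq2 (0.072). Genes around ATF3 were higher too: the 42 other genes tested within 5 Mb had a median log2 fold change of 0.35. For the other 40 tested members the median of such neighbours ran from -0.104 to 0.104, so ATF3 was the only member in a stretch that had shifted by more than 0.2.

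Stress effectors and feedback genes split. PPP1R15A (GADD34) brings a phosphatase to eIF2 alpha and so ends the ISR. It had 40.8, 37.3 and 40.2 CPM in inactivated libraries, against 60.9, 60.1 and 66.7 CPM in control libraries, and fell by 0.67 ± 0.053 on the log2 scale (adjusted p 2.4e-09). TRIB3, a pseudokinase that restrains ATF4, had 30.8, 27.3 and 32.1 CPM in inactivated libraries, against 40.5, 39.9 and 41.2 CPM in control libraries (log2 fold change -0.44 ± 0.059). Both thus fell, as ATF4 did.

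Members of the same role that rose were VLDLR and DDIT4. VLDLR, a lipoprotein and reelin receptor, had 132, 134 and 136 CPM in inactivated libraries, against 102, 103 and 95.2 CPM in control libraries, with a log2 fold change of 0.42 ± 0.043 (adjusted p 8.0e-08). DDIT4 (REDD1), an inhibitor of mTORC1, had 13.7, 12.03 and 13.5 CPM in inactivated libraries, against 10.2, 10.7 and 11.2 CPM in control libraries (log2 fold change 0.29 ± 0.077, adjusted p 0.00338). CHAC1, which degrades glutathione and is a sensitive ATF4 target, was low in both groups. It averaged 2.55 ± 0.0988 CPM in inactivated cells and 2.297 ± 0.113 CPM in control cells, without passing the test (log2 fold change 0.15, 95% interval -0.15 to 0.44). STC2, a secreted glycoprotein gene, averaged 9.79 ± 0.308 CPM in inactivated cells and 9.598 ± 0.937 CPM in control cells, with overlapping groups and an adjusted p of 0.802.

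Enzymes of amino acid synthesis and folate metabolism were lower as far as they were called, with log2 fold changes of -0.39 to -0.20. These were 4 of 5 tested (80%, against 29.7% of all genes tested). PHGDH, the first enzyme of serine synthesis, had 133, 120 and 125 CPM in inactivated libraries, against 162, 165 and 169 CPM in control libraries (log2 fold change -0.39 ± 0.045, adjusted p 3.9e-07). PSAT1, the next enzyme of that pathway, had 222, 215 and 226 CPM in inactivated libraries, against 248, 268 and 260 CPM in control libraries (log2 fold change -0.23 ± 0.043). The mitochondrial enzymes SHMT2 and MTHFD2 turn serine into folate-bound carbon units. SHMT2 had 174, 154 and 170 CPM in inactivated libraries, against 202, 204 and 210 CPM in control libraries (log2 fold change -0.31 ± 0.047). MTHFD2 had 271, 273 and 282 CPM in inactivated libraries, against 319, 322 and 304 CPM in control libraries (log2 fold change -0.20 ± 0.041). ASNS, the asparagine synthetase, averaged 5.82 ± 0.414 CPM in inactivated cells and 6.65 ± 0.27 CPM in control cells and did not pass (adjusted p 0.0942), with the counting limit named above.

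The 5 aminoacyl-tRNA synthetase genes, which charge transfer RNAs, went apart. SARS1, for serine, had 136, 129 and 140 CPM in inactivated libraries and between 171.9 and 172.3 CPM in control libraries, and fell (log2 fold change -0.35 ± 0.042, adjusted p 7.2e-07). GARS1, for glycine, had 139, 135 and 143 CPM in inactivated libraries, against 162, 164 and 156 CPM in control libraries (log2 fold change -0.21 ± 0.042). AARS1, for alanine, averaged 107 ± 2.601 CPM in inactivated cells and 101 ± 2.24 CPM in control cells. Its log2 fold change of 0.083 did not pass (adjusted p 0.0966), and its 95% interval of -0.0047 to 0.17 lies wholly above those of SARS1 and GARS1. WARS1, for tryptophan, had overlapping groups at 137 ± 6.37 CPM in inactivated cells and 133 ± 0.871 CPM in control cells (adjusted p 0.458). CARS1, for cysteine, had 19, 32 and 25 counts in inactivated libraries and 38, 30 and 33 in control libraries at its main locus (log2 fold change -0.63 ± 0.25, adjusted p 0.0362). This call was lost without inactivated library 1 or 2 (0.123 and 0.054) and without control library 1 or 3 (0.124 and 0.0773).

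Levels per length, as CPM per kilobase of exon, put CALR and HSP90B1 first. CALR had 616 CPM per kilobase in inactivated and 604 in control cells, HSP90B1 389 and 386, ATF4 195 and 250, HSPA5 184 and 208, and PDIA3 134 and 162. The most abundant ER chaperones, CALR and HSP90B1, are thus among the members with the smallest log2 fold changes. PDIA4 stood at 36.7 CPM per kilobase in inactivated cells and 83.1 in control cells. At the low end of the tested members, without the genes of uncertain counting, ATF3, CHAC1 and STC2 had 1.26, 1.68 and 2.30 CPM per kilobase in inactivated cells, against 0.951, 1.51 and 2.26 in control cells.

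Promoter elements and fold changes were set side by side, as a description, and differences between the small groups were not tested. The shares lower to set beside the counts are 66.7% in the ER chaperone set and 65.2% in the ATF4 target set. Over all genes tested 29.7% fell and 29.6% rose. Of the 10 ER chaperone genes with an ERSE or ERSE-II, 7 fell, with a median log2 fold change of -0.18 and a range of -0.65 to 0.027. Of the 7 with a window but neither element, 4 fell, with a median of -0.14 and a range of -1.18 to -0.054. Among the ATF4 targets with a CARE 3 of 7 fell and 1 rose (median -0.17), and among those with a window but no CARE 10 of 14 fell and 2 rose (median -0.35). The ranges of genes with and without an element overlapped in both sets. Sequence outside these windows was not searched, so a gene counted as without an element may still hold one.

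Other genes of these pathways, from 10 lists with 233 entries for 232 genes, did not all follow. The shares to set beside their counts are 29.7% lower and 29.6% higher over all genes tested. ERO1A, which rose, is counted both among the further ATF4 targets and among the further folding enzymes. Several of the genes that rose lie in stretches that had shifted upward. EDEM1 and CRELD1, which fell, lie on chromosome 3 among neighbours at medians of -0.55 and -0.63. The part of location was not tested. Of 29 further ATF4 targets tested, 17 fell (58.6%) and 9 rose (31.0%), while 3 did not pass (median log2 fold change -0.196). SLC7A11, the cystine importer, averaged 27.6 ± 1.78 CPM in inactivated cells and 64.3 ± 3.41 CPM in control cells (log2 fold change -1.22 ± 0.057, edgeR adjusted p 1.0e-12), although the 23 genes around it had a median of 0.22. GPT2, an alanine aminotransferase, averaged 20.6 ± 0.866 CPM in inactivated cells and 34.9 ± 0.555 CPM in control cells. SLC7A1, an arginine and lysine transporter, averaged 166 ± 6.51 CPM in inactivated cells and 259 ± 14.5 CPM in control cells. All 3 fell by more than 1.5-fold.

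Among UPR and ISR sensors and their regulators 6 of 20 fell (30%), 5 rose (25%) and 9 did not pass (median -0.023). These shares are near the 29.7% and 29.6% over all genes tested. MBTPS2, the protease that completes the cleavage of ATF6, averaged 19.2 ± 0.587 CPM in inactivated cells and 34.2 ± 0.488 CPM in control cells. IMPACT, an inhibitor of GCN2 activation, averaged 37.6 ± 0.773 CPM in inactivated cells and 51.2 ± 0.885 CPM in control cells. PPP1R15B, the constitutive relative of GADD34, rose to 291 ± 0.751 CPM in inactivated cells, against 210.0 ± 3.48 CPM in control cells, with 81 neighbours within 5 Mb at a median of 0.41. Chosen after their values were seen, the sister kinases of PERK all fell: EIF2AK1 (HRI, log2 fold change -0.21), EIF2AK2 (PKR, -0.41) and EIF2AK4 (GCN2, -0.33). The genes of the other ER sensors did not pass, with log2 fold changes of -0.057 for ATF6 and -4.2e-06 for ERN1, which encodes IRE1. ERN1 lies on chromosome 17 among 86 neighbours within 5 Mb at a median of 0.52, and so stood below the genes around it.

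Other genes of the ER itself were mixed. Of 34 further folding enzymes 15 fell (44.1%), 11 rose (32.4%) and 8 did not pass (median -0.055). All genes tested stood at 29.7% lower and 29.6% higher. TXNDC11, a thioredoxin domain protein, averaged 17.9 ± 0.815 CPM in inactivated cells and 34.2 ± 1.21 CPM in control cells, and DNAJC1 averaged 18.6 ± 0.153 CPM in inactivated cells and 27.2 ± 0.438 CPM in control cells. CNPY3 rose to 68.9 ± 3.75 CPM in inactivated cells, against 44.7 ± 3.17 CPM in control cells, where its 87 neighbours on chromosome 6 had a median log2 fold change of 0.61. Of 23 genes of ER-associated degradation 6 fell (26.1%), 8 rose (34.8%) and 9 did not pass (median -0.022), shares near those over all genes. VCP, the ATPase that pulls proteins out of the ER, rose to 768 ± 20.9 CPM in inactivated cells, against 439.6 ± 15.02 CPM in control cells. Its cofactor gene NPLOC4 rose too, by 0.52 on the log2 scale, with neighbours at 0.45, while ERLIN1, a scaffold of the ER membrane, fell by 0.60. Of 32 genes of ER translocation and signal peptide processing 12 fell (37.5%), 5 rose (15.6%) and 15 did not pass (median -0.067). SRPRB, a subunit of the signal recognition particle receptor, had a log2 fold change of -0.63. SRP68 and SEC63 had 0.42 and 0.40, with neighbours at 0.48 and 0.41.

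Amino acid, tRNA and chaperone genes outside the ER were mixed as well. Of 13 further genes of serine, glycine and folate metabolism 6 fell (46.2%), 3 rose (23.1%) and 4 did not pass (median -0.10). Again, all genes tested stood at 29.7% lower and 29.6% higher. GLDC, of the glycine cleavage system, averaged 7.18 ± 0.272 CPM in inactivated cells and 16.1 ± 0.233 CPM in control cells, and MTHFD2L, a relative of MTHFD2, had a log2 fold change of -0.496. MTHFD1L, a mitochondrial formate-producing enzyme, rose by 0.83 with neighbours at 0.52. Among 18 other cytosolic synthetases and their scaffold proteins 4 fell (22.2%), 7 rose (38.9%) and 7 did not pass (median -0.0080). AIMP2 and TARS3 had log2 fold changes of -0.88 and -0.49, and EEF1E1 had 0.59, with neighbours at 0.47. Of 15 mitochondrial synthetases 7 fell (46.7%), 5 rose (33.3%) and 3 did not pass (median -0.16). RARS2 and AARS2 rose by 0.74 and 0.61, with neighbours at 0.48 and 0.62.

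Mitochondrial chaperones and proteases were mostly lower: 10 of 14 fell (71.4%, against 29.7% of all genes tested), YME1L1 rose and 3 did not pass (median -0.19). HSPA9, the mitochondrial Hsp70, averaged 833.5 ± 20.1 CPM in inactivated cells and 1046 ± 16.2 CPM in control cells. TRAP1, the mitochondrial Hsp90, averaged 222 ± 11.5 CPM in inactivated cells and 286 ± 8.35 CPM in control cells, and the protease gene AFG3L2 had a log2 fold change of -0.33. The rise of YME1L1 was lost without inactivated library 3 and without control library 2 or 3, each of which left 0 genes of this list higher. Among cytosolic chaperones more genes were called higher than lower: 9 of 19 rose (47.4%), BAG1 and DNAJA1 fell and 8 did not pass (median 0.092). Of all genes tested, 29.6% rose. TCP1, a subunit of the cytosolic chaperonin, rose by 0.67 and HSP90AB1, a cytosolic Hsp90, by 0.47 on the log2 scale, with neighbours on chromosome 6 at 0.52 and 0.62, and BAG1 fell by 0.60. Of the 16 list entries that could not be tested, 11 have a second copy on an alternate locus, among them SQSTM1, RPN2 and ATF6B, and their low counts cannot be read as lack of expression.

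**Figure D5:**
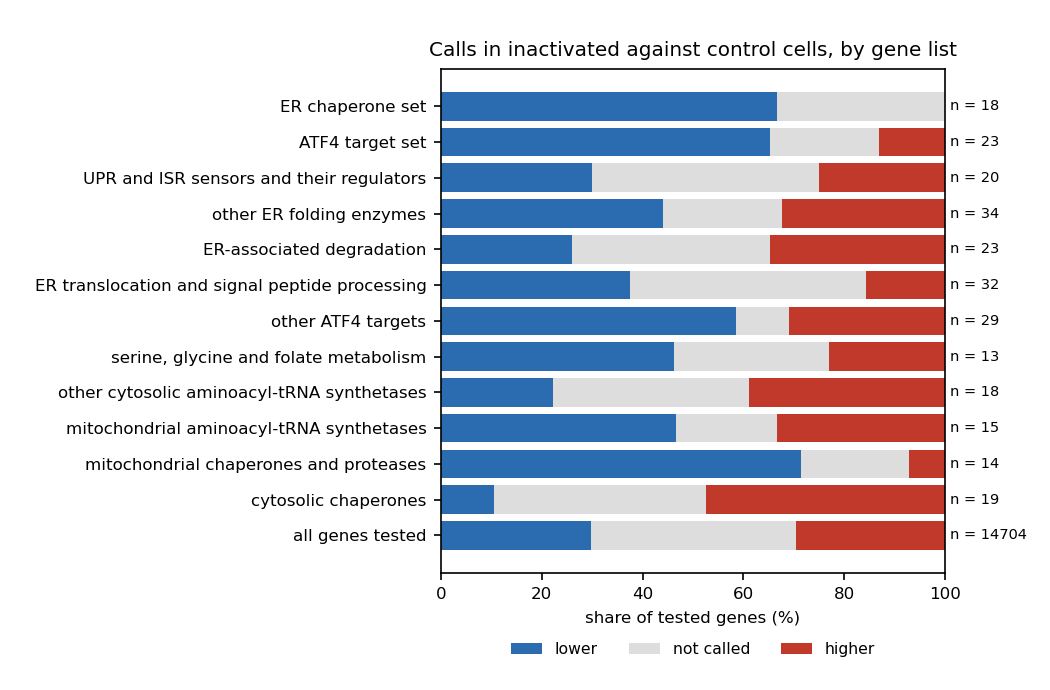
Share of tested genes called lower (blue), not called (grey) and called higher (red) in inactivated against control cells, for both sets, the 10 pathway lists and all genes tested, with the number of genes at the right. Shares lower are 66.7% and 65.2% in the ER chaperone and ATF4 target sets, 71.4% among mitochondrial chaperones and proteases, the highest share drawn, 58.6% among further ATF4 targets and 29.7% over all genes.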

How the data were processed

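RNA sequencing of 12 samples, 6 libraries on 2 lanes each, was analysed. Per the submitters' processing notes, the build was GRCh38.p14 and the tools STAR 2.7.2b, featureCounts 1.6.3, FastQC 0.11.9, DESeq2 1.36.0 and MultiQC 1.11. What the authors deposited are unnormalized counts for each gene in each lane. The deposited table also gives exon length in bases, another kind of value, used for levels per length. The sources used here do not give the handling of strand or of multiply aligned reads. Of 49677 rows, 26 held no counts and were left out, none a member.

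Lanes were summed. Chi-square over degrees of freedom was 1.14 to 1.20 between lanes of 1 library, 2.98 to 12.4 within a group and 78.3 to 100.2 across groups. Genes were filtered with filterByExpr (minimum count 10, minimum total 15), scaled by TMM and compared with edgeR 4.0.16 (quasi-likelihood F test, two-sided, Benjamini-Hochberg over all genes, threshold 0.05). SE is the size of the log2 fold change over the square root of F. The test was checked on simulated data in which far fewer genes changed than were called here. That check does not cover a comparison where 59.3% of the genes tested are called. Alternatives were DESeq2 1.42.0, limma-voom 3.58.1, RLE factors, library totals, no filter, single lanes and leaving out each library. The members, lists and tests were chosen with earlier results of these data known. All members were described, and from each pathway list the 3 called genes with the lowest p. A marker gene and a gene that this rule names are not reported here.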

Additional observations from a re-analysis of the deposited data

How the results depend on the processing

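Of the 41 tested members, 31 kept their direction and their side of the threshold in all 14 settings (13 planned, 1 chosen after seeing the data). Over these settings the median log2 fold change of the ER chaperone set moved by less than the spread between libraries. That of the ATF4 target set was -0.32 with no filter on low counts, where SESN2 and ALDH1L2 enter, and -0.28 in lane 2 alone, where the cause was not tested. Members that were not called changed sign in 7 cases, none of them past the threshold. HSP90B1 had a log2 fold change of -0.0020 with no filter, and -0.0024 (without control library 3) to 0.023 when 1 library was left out. SDF2L1 had -0.0085 in lane 2 alone, and -0.061 (without inactivated library 1) to 0.15 when 1 library was left out, with -0.015 without inactivated library 3 and -0.0051 without control library 1. STC2 had -0.050 (without control library 2) to 0.087. AARS1 passed with library totals only (adjusted p 0.0309), where the calls of MANF and XBP1 were lost (0.0948 and 0.0796). DESeq2 did not call MANF, XBP1 and CARS1 (0.0905, 0.0865 and 0.167), and neither did lane 1 alone for MANF and XBP1 (0.125 and 0.0641) nor lane 2 alone for XBP1 and CARS1 (0.0931 and 0.492). Without the 5 members of uncertain counting, a choice made after seeing the data, 10 ER chaperone genes fell, 0 rose and 6 did not pass. Of the ATF4 targets, 14 then fell, 3 rose and 4 did not pass. Over all genes tested 29.7% fell and 29.6% rose. No paired analysis was possible because libraries of the groups carry no shared numbers in the labels.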
